A study of Homo sapiens with 2 samples.

Results

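The 49 genes described here encode the machinery that licenses origins of DNA replication, opens them and copies the DNA at the fork. They were taken from a fixed list of gene symbols, all 49 were found in both deposited tables, and all 49 passed the filter on low values (a mean RPKM of at least 1 over both libraries), among 10272 expressed of 19096 gene symbols. RNA was sequenced from P493-6, a B cell line of human origin, labelled as B-cell lymphoma, that carries a c-Myc transgene held silent by tetracycline. For high c-Myc there was 1 library, made 24 h after the repression ended, and for low c-Myc there was 1 library, made at 0 h with the transgene still repressed. Both groups came from the same line in the same medium. They differed by the release of the transgene from repression by tetracycline and by 24 h of time, which this design does not separate. Since synthetic RNAs had been added in proportion to cell number, levels could also be set per cell.

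In each cell cycle the origin recognition complex marks origins, and CDC6 and CDT1 load the ring-shaped MCM helicase there in G1, a step called licensing that geminin blocks later in the cycle. In S phase the kinase CDC7 with its partner DBF4, together with CDC45 and the GINS complex, turns the loaded ring into an active helicase. Polymerase alpha with primase then starts each strand, polymerases epsilon and delta extend it on the PCNA clamp, RPA covers the single strands, and FEN1 and LIG1 join the fragments of the lagging strand. Resting lymphocytes hold little of much of this machinery and make it on the way into S phase. E2F factors and MYC are both known regulators of genes of this kind.

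Many promoters of these genes, though not all, hold a sequence word that was not a rule of the gene list. Promoter windows of 300 bases (250 before and 50 after an annotated start) came from RefSeq on GRCh38.p14, and 43 of the 49 genes matched, all but MCM4, MCM5, GINS4, POLD3, RPA2 and RPA3. The E2F-type words searched on both strands were TTTCCCGC, TTTGGCGC, TTTGCCGC and TTTCGCGC. At least 1 of the 4 words stood in a window of 22 of the 43 genes (51.2%), against 545 of 7718 expressed genes with a window (7.06%) and 3.99% of all 27305 genes of the table. Per window, since some genes have several starts, the shares were 39.3% of 56 windows of the replication genes, against 5.17% of 11318 windows of expressed genes. A wider set of 8 words, TTTNNCGN with C or G at each N, which includes the first 4 and was added after the promoters had been seen, was in 26 of the 43 genes (60.5%) and in 12.9% of expressed genes. The E-box CACGTG, the word that MYC binds with its partner MAX, was in 9 of the 43 genes (20.9%) and in 13.4% of expressed genes. A match describes the letters of a window and not a bound site. The shares were not adjusted for the GC content of the windows.

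Windows are shown for the 3 highest and the 1 lowest log2 ratio of high over low c-Myc among genes that could be shown, and for MCM2 and CDC6, which were added because they hold the words. Capitals mark the E-box and any of the 8 E2F-type words, on either strand. They lie at chr16:88803539-88803838 (CDT1, plus strand), chr19:50384073-50384372 (POLD1, plus strand, the first of 2 starts listed), chr7:44123499-44123798 (POLD2, minus strand), chr3:127598161-127598460 (MCM2, plus strand), chr17:40287629-40287928 (CDC6, plus strand) and chr2:148021502-148021801 (ORC4, minus strand, the first of 2 starts listed), all on GRCh38.p14.
CDT1: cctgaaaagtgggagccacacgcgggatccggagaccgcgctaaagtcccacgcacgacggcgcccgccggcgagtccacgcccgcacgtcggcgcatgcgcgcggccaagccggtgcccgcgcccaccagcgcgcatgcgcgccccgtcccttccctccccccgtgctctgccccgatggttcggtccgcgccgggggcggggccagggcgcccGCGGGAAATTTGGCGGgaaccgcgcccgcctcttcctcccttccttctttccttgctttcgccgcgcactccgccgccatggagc
POLD1: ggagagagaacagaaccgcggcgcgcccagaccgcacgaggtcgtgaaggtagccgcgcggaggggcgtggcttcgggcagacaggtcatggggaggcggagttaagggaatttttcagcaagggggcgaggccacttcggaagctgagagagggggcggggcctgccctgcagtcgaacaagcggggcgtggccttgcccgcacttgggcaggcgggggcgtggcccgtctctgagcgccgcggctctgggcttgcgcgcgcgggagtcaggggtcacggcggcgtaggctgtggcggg
POLD2: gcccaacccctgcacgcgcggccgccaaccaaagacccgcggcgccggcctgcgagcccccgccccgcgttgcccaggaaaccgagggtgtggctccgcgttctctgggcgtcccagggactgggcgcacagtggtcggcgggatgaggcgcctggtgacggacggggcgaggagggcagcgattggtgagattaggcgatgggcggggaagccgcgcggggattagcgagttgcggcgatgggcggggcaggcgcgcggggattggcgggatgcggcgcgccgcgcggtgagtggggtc
MCM2: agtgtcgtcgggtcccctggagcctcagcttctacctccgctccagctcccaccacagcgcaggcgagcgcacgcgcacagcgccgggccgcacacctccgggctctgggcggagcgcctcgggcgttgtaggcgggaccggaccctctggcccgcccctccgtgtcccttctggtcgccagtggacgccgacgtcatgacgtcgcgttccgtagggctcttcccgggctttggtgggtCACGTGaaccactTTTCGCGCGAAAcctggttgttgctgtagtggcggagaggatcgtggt
CDC6: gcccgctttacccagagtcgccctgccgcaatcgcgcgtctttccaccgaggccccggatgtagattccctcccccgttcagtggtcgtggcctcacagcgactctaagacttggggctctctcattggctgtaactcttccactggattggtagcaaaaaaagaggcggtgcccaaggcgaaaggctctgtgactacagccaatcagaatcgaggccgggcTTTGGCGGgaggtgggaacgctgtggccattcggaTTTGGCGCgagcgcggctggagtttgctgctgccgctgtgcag
ORC4: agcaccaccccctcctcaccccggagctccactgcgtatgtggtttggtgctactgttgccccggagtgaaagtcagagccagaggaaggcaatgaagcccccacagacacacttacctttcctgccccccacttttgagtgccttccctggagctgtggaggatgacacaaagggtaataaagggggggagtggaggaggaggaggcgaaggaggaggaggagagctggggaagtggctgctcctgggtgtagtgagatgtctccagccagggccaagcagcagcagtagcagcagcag
The CDT1 window holds 2 of the E2F-type words next to each other, the CDC6 window holds 2 apart, and the MCM2 window holds 1 E-box and 2 overlapping E2F-type words on opposite strands. The POLD1 and POLD2 windows hold neither the E-box nor an E2F-type word. As deposited, both genes were higher by more than 6-fold at high c-Myc. Corrected for transcript GC content, their log2 ratios were smaller, at 1.501 for POLD1 and 2.20 for POLD2. Whether the words of a window bear on the ratio of its gene was not tested. The ORC4 window shown holds neither the E-box nor an E2F-type word, while the window at its other start holds the E-box. Among genes at least 2-fold higher, 18 of 31 had one of the 4 words (58.1%), and among those between the limits 4 of 12 had one (33.3%). The E-box was in 7 of the 31 (22.6%) and 2 of the 12 (16.7%). The second group is small, and POLA1, which holds a word, lies just under the limit at 0.997. The same split was not made over all expressed genes, and a difference was not tested.

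On the deposited RPKM scale most of the replication machinery was higher at 24 h, and none of it was 2-fold lower. RPKM is the number of reads on a transcript divided by its length and by the size of the library, and ratios were taken as log2 of RPKM plus a pseudocount of 0.5, which understates differences of weakly expressed genes. A gene is called higher or lower at a log2 ratio of 1 or -1, which is a 2-fold difference. Of the 49 genes, 35 were at least 2-fold higher (71.4%), against 24.9% of all expressed genes, and 0 were 2-fold lower, against 9.74%. MCM10, GINS1 and POLE2, which are among the 35, were under an RPKM of 1 at 0 h. They passed the filter on low values only through their level in the high c-Myc library. Centring on the median of expressed genes left 28 of 49 higher (19.8% of expressed genes), an equal RPKM sum of the genes alone left 28 (18.2%), and quantile normalization left 29 (17.3%), with 0 lower under each. These are the 3 other scalings named for single genes, and none of them takes account of cell number. At a 3-fold limit 22 of the 49 were higher, against 13.0% of expressed genes. The median log2 ratio was 1.51 over the 49 genes and 0.22 over all expressed genes (interquartile range -0.44 to 0.997). By rank among the 10272 genes, 18 of the 49 lay in the highest 10% of ratios, 35 in the highest 25%, and 4 below the median. Exons of 18 of the genes overlap those of a gene on the other strand in GENCODE release 29, 7 overlap a gene on the same strand, and 7 (DBF4, POLD2, RFC3, RFC5, PCNA, FEN1 and RPA2) have a named pseudogene copy, so that some of their reads may be shared. RPKM itself was higher in the high c-Myc library for 47 of the 49, against 6024 of the 10272 expressed genes. The exceptions among the 49 were ORC3 and ORC4. With 1 library in each group no difference has a replicate check and no test was made. In bulk RNA, a smaller share of cells in S phase and less of these RNAs in each cell cannot be told apart.

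**Figure D1:**
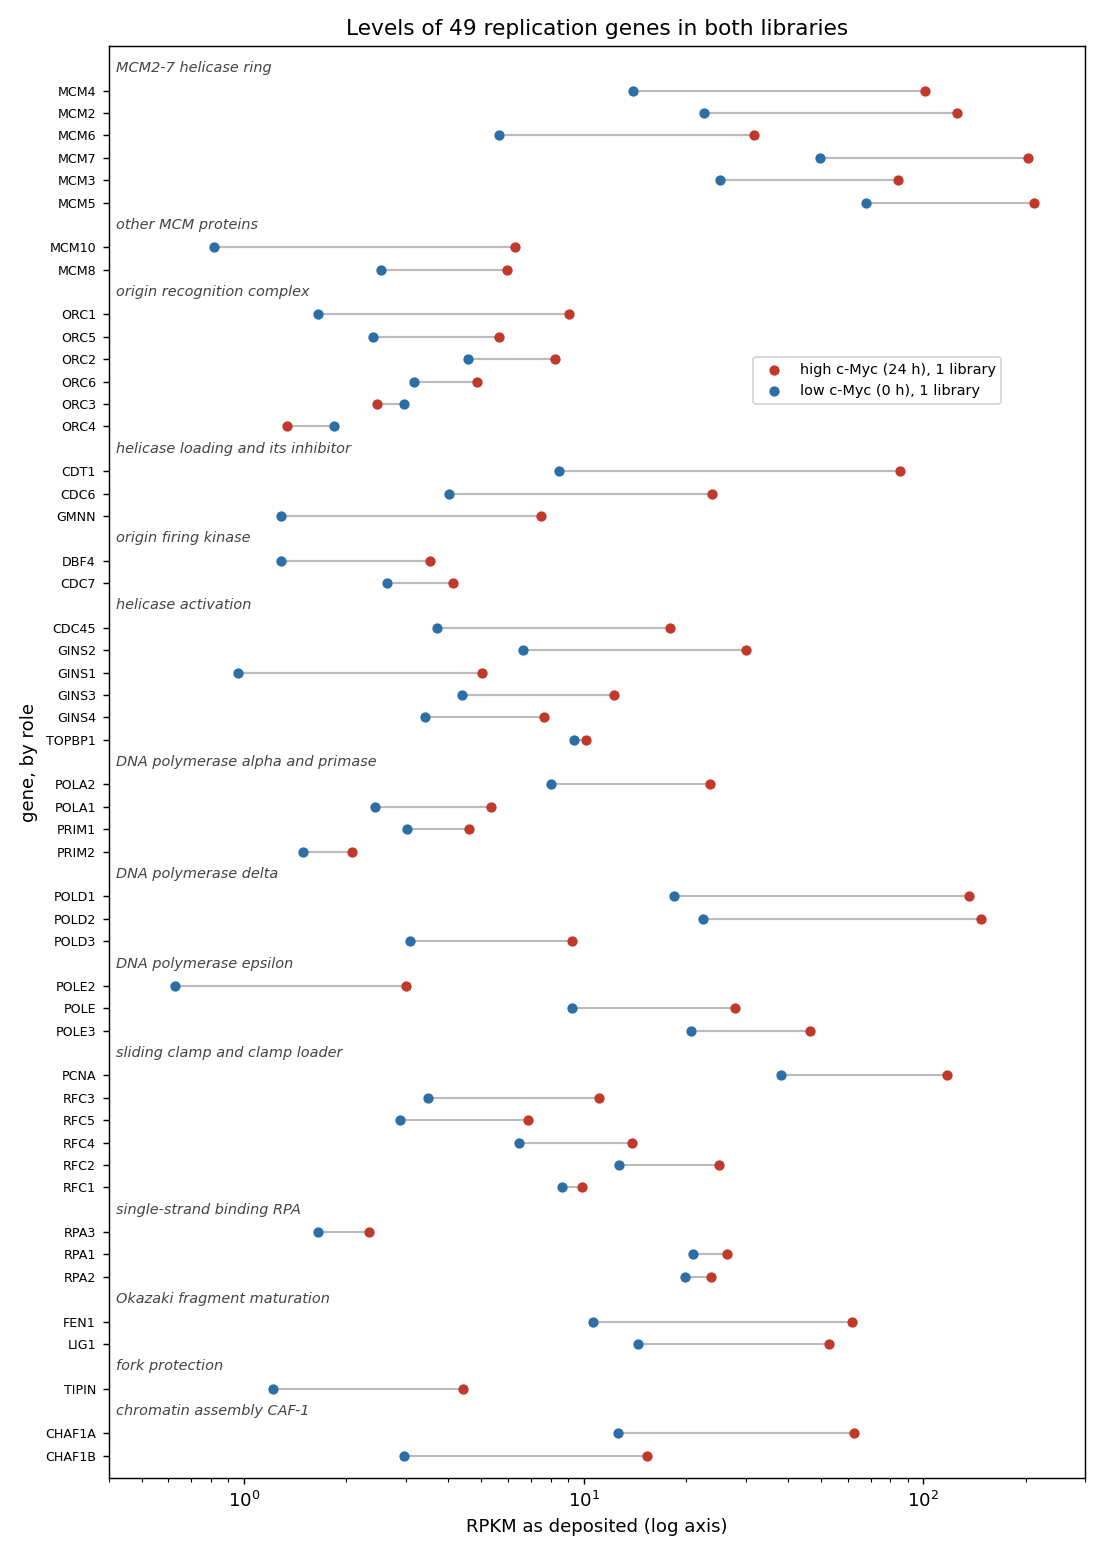
RPKM as deposited (log axis) of each of the 49 genes, grouped by role, with 1 point for the high c-Myc library and 1 for the low c-Myc library, joined by a line and with no error bar since each group had 1 library. The points of the high c-Myc library lie to the right for 47 genes, and the lines of TOPBP1, RFC1, RPA2 and RPA1 are the shortest among those.

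All 6 genes of the MCM helicase ring differed by 2-fold or more, with more RNA at 24 h. MCM4 stood at an RPKM of 101 in high c-Myc cells and 14.0 in low c-Myc cells, a log2 ratio of 2.81. For MCM2 the levels were 126 in high c-Myc cells and 22.6 in low c-Myc cells, a log2 ratio of 2.45, and for MCM6 they were 31.8 in high c-Myc cells and 5.64 in low c-Myc cells, a ratio of 2.39. These 3 were higher by more than 5-fold, while the other subunits of the ring, which start at higher levels, were higher by smaller factors. MCM7, whose transcript also hosts microRNAs in an intron, had 204 RPKM in high c-Myc cells and 49.5 in low c-Myc cells (log2 ratio 2.03). MCM3 had 84.4 in high c-Myc cells and 25.3 in low c-Myc cells (1.72). MCM5 had 212 in high c-Myc cells and 67.6 in low c-Myc cells (1.64). By the accession used for each gene, MCM5 was the most abundant subunit in both. The counting intervals at 95% on ratios without the pseudocount were narrow, from 2.82 to 2.89 for MCM4 and from 1.63 to 1.67 for MCM5, and do not overlap, but they cover counting error only.

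The ring holds 1 copy of each subunit, yet the transcripts differed several-fold in level, and less so at 24 h. The highest RPKM, that of MCM5, was 6.68 times the lowest, that of MCM6, in high c-Myc cells and 11.99 times in low c-Myc cells. Summing RPKM over all listed accessions, of which MCM7 has 2 and MCM5 has 1, made MCM7 the highest in both libraries. Its sum was 12.7 times that of MCM6 in high c-Myc cells and 17.5 times in low c-Myc cells. Such sums count reads shared by transcripts more than once. Outside the ring, MCM10, which helps to activate the helicase, stood at 6.26 RPKM in high c-Myc cells and 0.82 in low c-Myc cells, a log2 ratio of 2.36 that is 2.93 without the pseudocount. MCM8, which forms a separate helicase used in repair, stood at 5.94 in high c-Myc cells and 2.53 in low c-Myc cells, a log2 ratio of 1.09 that was under the limit in each of the 3 other scalings.

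The origin recognition complex was mixed, with 2 of 6 subunits at least 2-fold higher (33.3%), a share not far from the 24.9% of all expressed genes. ORC1, the subunit whose protein is removed after licensing in human cells, stood at 9.05 RPKM in high c-Myc cells and 1.65 in low c-Myc cells, a log2 ratio of 2.15. ORC5 had 5.63 in high c-Myc cells and 2.40 in low c-Myc cells (1.08), a call lost under each of the 3 other scalings, ORC2 had 8.22 in high c-Myc cells and 4.56 in low c-Myc cells (0.78) and ORC6 had 4.87 in high c-Myc cells and 3.17 in low c-Myc cells (0.55). ORC3 had 2.46 RPKM in high c-Myc cells and 2.97 in low c-Myc cells (-0.23), and ORC4 had 1.34 in high c-Myc cells and 1.84 in low c-Myc cells (-0.35). Those 2 signs turned to 0.15 and 0.35 once ratios were corrected for transcript GC content. By the accession used for each gene, ORC1 was the lowest of the 6 subunits at 0 h and the highest at 24 h, and the spread from lowest to highest was 6.76-fold in high c-Myc cells and 2.76-fold in low c-Myc cells. By sums over accessions, where ORC1 was no longer the lowest at 0 h, the spread was 5.56-fold in high c-Myc cells and 3.34-fold in low c-Myc cells.

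As deposited, the helicase loaders and their inhibitor were all more than 4-fold higher at 24 h. CDT1, which brings the MCM ring to the origin, stood at 85.1 RPKM in high c-Myc cells and 8.49 in low c-Myc cells. Its log2 ratio of 3.25 was the highest of the 49 genes on this scale, at rank 158 of 10272, with a counting interval of 3.27 to 3.38 on a ratio of 3.33 without the pseudocount. Corrected for the GC content of transcripts it was 1.90. CDC6, the ATPase that loads the ring with CDT1, had 23.9 RPKM in high c-Myc cells and 4.02 in low c-Myc cells, a log2 ratio of 2.43. GMNN, which encodes geminin, the inhibitor of CDT1, had 7.52 in high c-Myc cells and 1.28 in low c-Myc cells, a log2 ratio of 2.17 that rests on about 138 reads at 0 h. The GMNN ratio was under 4-fold in each of the 3 other scalings (log2 ratios of 1.87 to 1.998).

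A ratio of genes within a library does not change when that library is multiplied by one factor, but it does change under quantile normalization or the GC correction. As deposited, CDT1 stood at 11.3 times the level of GMNN in high c-Myc cells and 6.61 times in low c-Myc cells. Summing over accessions, of which GMNN has 4 and CDT1 has 1, gave 2.95 times in high c-Myc cells and 1.70 times in low c-Myc cells. After the GC correction the order turned round, with a log2 ratio of 1.90 for CDT1 and 2.55 for GMNN, so the larger difference of CDT1 depends on that choice. CDC6 stood at 3.18 times GMNN in high c-Myc cells and 3.13 times in low c-Myc cells, a pair set side by side after its values were seen.

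Among the factors that fire origins, CDC45, the 4 GINS subunits and DBF4 were at least 2-fold higher, and CDC7 and TOPBP1 were not. CDC45, which binds the ring as a cofactor of the active helicase, had 18.0 RPKM in high c-Myc cells and 3.70 in low c-Myc cells (log2 ratio 2.14). The 4 GINS subunits, which complete that helicase, were all at least 2-fold higher as deposited, but GINS4 fell under the limit with a pseudocount of 1 (0.97) and under each of the 3 other scalings (0.76 to 0.86). GINS2 had 30.1 RPKM in high c-Myc cells and 6.64 in low c-Myc cells (2.10), and GINS1 had 5.03 in high c-Myc cells and 0.96 in low c-Myc cells (1.92). GINS3 had 12.2 in high c-Myc cells and 4.40 in low c-Myc cells (1.38), and GINS4 had 7.64 in high c-Myc cells and 3.42 in low c-Myc cells (1.05). The order of the 4 subunits was the same in both libraries, with a highest-to-lowest spread of 6.00-fold in high c-Myc cells and 6.90-fold in low c-Myc cells (by sums over accessions, 6.95-fold in high c-Myc cells and 13.5-fold in low c-Myc cells). DBF4, the regulatory subunit of the firing kinase, had 3.53 RPKM in high c-Myc cells and 1.29 in low c-Myc cells (1.17, but 0.95 after centring and 0.90 with an equal RPKM sum), and CDC7, its catalytic subunit, had 4.12 in high c-Myc cells and 2.65 in low c-Myc cells (0.55). TOPBP1, a scaffold of firing and of checkpoint signalling, stood at 10.2 in high c-Myc cells and 9.39 in low c-Myc cells, a log2 ratio of 0.11 that was the lowest among genes with a higher RPKM at 24 h. Centring on the median of expressed genes put TOPBP1 at -0.11.

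**Figure D2:**
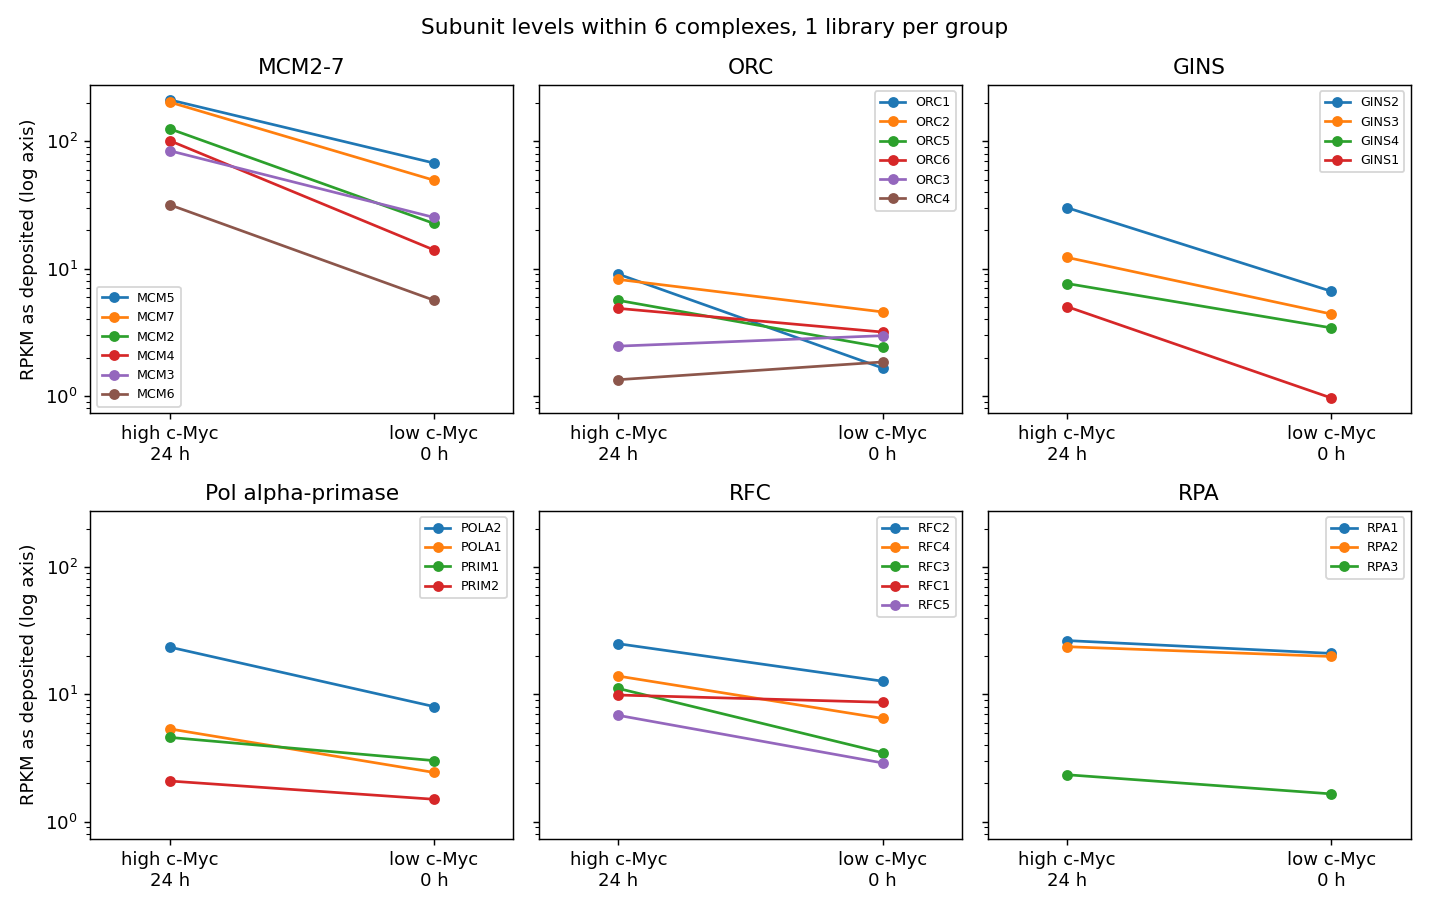
RPKM as deposited (log axis) of the subunits of 6 complexes in the high c-Myc library (left in each panel) and the low c-Myc library (right), 1 library per group with no error bars. Lines of the MCM ring run down to the right and lie closer together at 24 h, ORC1 crosses the other ORC subunits, and the RPA lines are nearly flat.

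All 6 listed subunits of the replicative polymerases delta and epsilon were at least 2-fold higher at 24 h as deposited, though POLE3 was not under any of the 3 other scalings (0.56 to 0.92). POLD1, the catalytic subunit of delta, had 136 RPKM in high c-Myc cells and 18.4 in low c-Myc cells, a log2 ratio of 2.85, and POLD2, an accessory subunit, had 148 in high c-Myc cells and 22.4 in low c-Myc cells (2.70). POLD3, which helps to bind PCNA, stood at 9.25 in high c-Myc cells and 3.09 in low c-Myc cells (1.44). After the GC correction POLD1 was at 1.501 and POLD2 at 2.20. The leading-strand polymerase epsilon was also higher in all 3 listed subunits. POLE, the catalytic subunit, had 28.0 RPKM in high c-Myc cells and 9.25 in low c-Myc cells (1.55), and POLE3, a histone-fold subunit, had 46.4 in high c-Myc cells and 20.7 in low c-Myc cells (1.14). POLE2 had 3.002 in high c-Myc cells and 0.63 in low c-Myc cells, a log2 ratio of 1.63 that is 2.25 without the pseudocount (counting interval 1.94 to 2.57), on about 103 reads at 0 h.

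Polymerase alpha and primase, which lay down the first stretch of each fragment, had 1 of 4 genes at or over 2-fold. That share is near the 24.9% of all expressed genes. POLA2, the accessory subunit, had 23.5 RPKM in high c-Myc cells and 8.02 in low c-Myc cells (log2 ratio 1.496). POLA1, the catalytic subunit, had 5.35 in high c-Myc cells and 2.43 in low c-Myc cells and fell just short of the limit, at 0.997. PRIM1, which makes the RNA primer, had 4.59 in high c-Myc cells and 3.01 in low c-Myc cells (0.53), and PRIM2, the large primase subunit, had 2.08 in high c-Myc cells and 1.497 in low c-Myc cells (0.37). POLA2 thus stood at 11.3 times PRIM2 in high c-Myc cells and 5.35 times in low c-Myc cells.

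The sliding clamp was higher, and its loader followed in part. PCNA, the ring that tethers polymerases to DNA, had 117 RPKM in high c-Myc cells and 38.1 in low c-Myc cells, a log2 ratio of 1.61. RFC3, a small subunit of the loader, had 11.1 RPKM in high c-Myc cells and 3.48 in low c-Myc cells (1.55). Of its other small subunits, RFC5 had 6.84 in high c-Myc cells and 2.89 in low c-Myc cells (1.11) and RFC4 had 13.9 in high c-Myc cells and 6.47 in low c-Myc cells (1.05), both under the limit in each of the 3 other scalings. RFC2, the remaining small subunit, had 24.999 in high c-Myc cells and 12.7 in low c-Myc cells (0.95), and passed the limit at 1.15 by its other accession. RFC1, the large subunit that is specific to the PCNA loader, stood at 9.88 in high c-Myc cells and 8.66 in low c-Myc cells (0.18), and centring put it at -0.04. The small subunits also serve other clamp loaders, in which RFC1 is replaced.

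The single-strand binding complex RPA had the lowest median log2 ratio of the groups with several genes, 0.33, and none of its genes reached 2-fold. RPA1, the large DNA-binding subunit, had 26.5 RPKM in high c-Myc cells and 21.0 in low c-Myc cells (log2 ratio 0.33). RPA2, the middle subunit, had 23.7 in high c-Myc cells and 19.9 in low c-Myc cells (0.25), and RPA3, the smallest, had 2.33 in high c-Myc cells and 1.65 in low c-Myc cells (0.40). These ratios lie between percentiles 51.1 and 56.9 of all expressed genes, close to the middle of the transcriptome. The sign depended on the scaling, since quantile normalization put RPA1 at -0.22 and RPA2 at -0.28, and an equal RPKM sum of the genes alone put RPA2 at -0.06. RPA also serves DNA repair and recombination outside S phase.

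The genes that finish and package the new DNA were higher. FEN1, the flap nuclease of lagging-strand fragments, had 61.8 RPKM in high c-Myc cells and 10.7 in low c-Myc cells (log2 ratio 2.48), and LIG1, the ligase that seals them, had 52.9 in high c-Myc cells and 14.5 in low c-Myc cells (1.83). CHAF1A, the large subunit of the chromatin assembly factor CAF-1 that places histones behind the fork, had 62.7 in high c-Myc cells and 12.6 in low c-Myc cells (2.27). CHAF1B, its middle subunit, had 15.3 in high c-Myc cells and 2.96 in low c-Myc cells (2.19). TIPIN, part of the complex that steadies the moving fork, had 4.40 in high c-Myc cells and 1.22 in low c-Myc cells (1.51).

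Per cell, the log2 ratio of every expressed gene was higher by the same amount, since one negative value was subtracted from all ratios. The 46 synthetic RNAs that reached an RPKM of 1 in each library had a median log2 ratio of -2.56 (SD 0.54 over the synthetic RNAs), and that median was subtracted from each ratio. All 49 genes were then at least 2-fold higher, against 97.1% of expressed genes, so this count is near the background. The median log2 ratio per cell was 4.07 over the 49 genes and 2.78 over all expressed genes. The gap of 1.29 is the same on both scales by construction. CDT1 was 56.1-fold higher per cell and ORC4, the lowest, was 4.61-fold higher. The authors' deposited values renormalized to the synthetic RNAs were compared without a pseudocount, unlike the folds just given. In them the high c-Myc level was 47.4 times the low one for CDT1 and 3.49 times for ORC4.

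**Figure D3:**
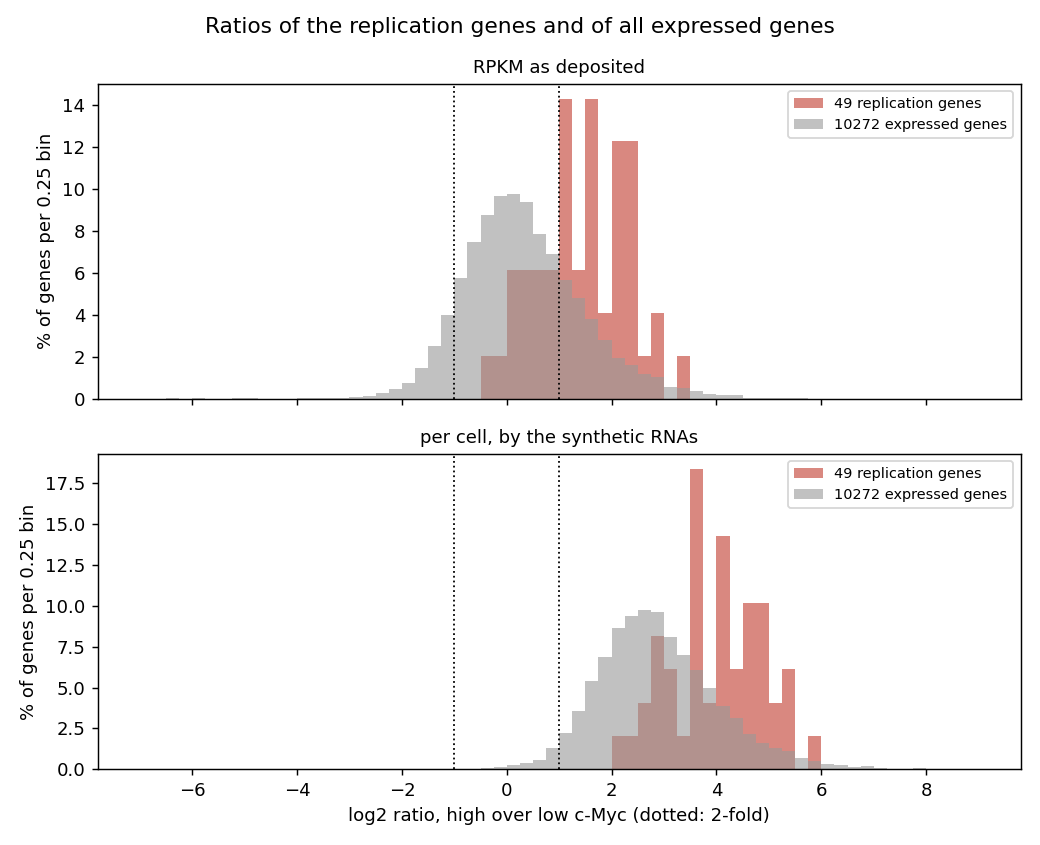
Share of genes (%) in bins of 0.25 of the log2 ratio of high over low c-Myc, for the 49 replication genes and the 10272 expressed genes, on the deposited scale (top) and per cell (bottom), with dotted lines at 2-fold. The 49 genes lie from -0.35 to 3.25 as deposited and from 2.21 to 5.81 per cell. Their median lies to the right of that of all genes, with 4 of the 49 to the left of the latter. This is the same on both scales by construction, since they differ by one constant.

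Ratios in these libraries went with the GC content of the transcript, and the replication genes were not GC-rich. Their median GC content was 45.9% (47 of 49 with a value) and that of expressed genes was 50.3% (9948 genes). The log2 ratio and GC content had a Spearman's rho of 0.59 across the 47 genes and 0.41 across the 9948, both from the same pair of libraries, and these are descriptions across genes, which are not independent replicates. After the median ratio of genes of like GC content was taken off, 37 of 47 genes were at least 2-fold higher, against 22.2% of 9948 expressed genes, and the median was 1.52. MCM4 then had the highest log2 ratio of the 47, at 2.92, followed by MCM6 at 2.69 and CDC6 at 2.68. ORC2, CDC7 and POLA1 passed the 2-fold limit, at 1.16, 1.07 and 1.32. Across the 49 genes the log2 ratio had a rho of 0.21 with the RPKM at 0 h and of 0.52 with the mean RPKM of both libraries. Both levels share values with the ratio itself.

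**Figure D4:**
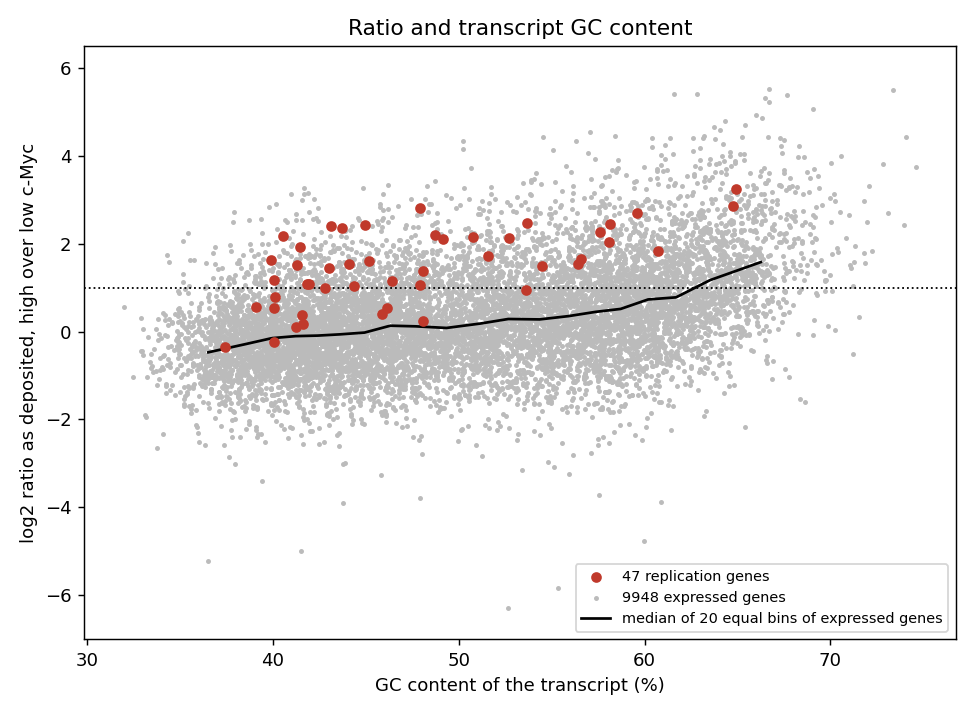
Log2 ratio as deposited, high over low c-Myc, against transcript GC content (%) for 47 replication genes and 9948 expressed genes, with the median of 20 equal bins of expressed genes as a line and the 2-fold limit dotted. Most of the 47 genes lie above the line, and CDT1 and POLD1 lie at its GC-rich end.

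A wider set of origin and fork genes also had none that was 2-fold lower. Of 38 further genes on a list of fork, origin and chromatin replication factors, 19 had a deposited ratio of 2-fold or more, against 24.9% of expressed genes, and 0 reached it in the other direction, against 9.74%. Their median log2 ratio was 0.98. CHTF18, part of an alternative clamp loader, had 56.7 RPKM in high c-Myc cells and 5.83 in low c-Myc cells (3.17). RECQL4, a helicase that takes part in origin firing, had 56.1 in high c-Myc cells and 7.24 in low c-Myc cells (2.87), and LRWD1, a partner of ORC, had 43.3 in high c-Myc cells and 6.30 in low c-Myc cells (2.69). At the other end, the histone chaperone ASF1A had 1.73 in high c-Myc cells and 2.67 in low c-Myc cells (-0.50), POLD4, the small subunit of polymerase delta, had 92.5 in high c-Myc cells and 130 in low c-Myc cells (-0.49), and the topoisomerase TOP1 had 28.3 in high c-Myc cells and 36.4 in low c-Myc cells (-0.36). After the GC correction CHTF18 was at 1.82, RECQL4 at 1.52 and LRWD1 at 1.75. POLD4 was then at -1.04, TOP1 at -0.04 and ASF1A at 0.20. POLD4 was thus apart from POLD1, POLD2 and POLD3, the other subunits of its enzyme. Of 27 expressed genes of a G2 and mitosis list, 10 were at least 2-fold higher, beside the same 24.9% of expressed genes, and the median log2 ratio was 0.66. No test of a difference between these lists was made.

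B cell markers were abundant in both libraries. The steps between low RPKM values implied about 105450000 reads in high c-Myc cells and 103100000 in low c-Myc cells, and the 47 genes with a transcript length rested on about 497 to 79093 reads in high c-Myc cells and 103 to 24628 in low c-Myc cells. MYC stood at 2358 RPKM in high c-Myc cells and 836 in low c-Myc cells, a value that does not separate the transgene from the endogenous gene. All 5 B cell markers were over an RPKM of 1 in both libraries, with summed levels of 1175 in high c-Myc cells and 3081 in low c-Myc cells. T cell markers summed to 1.96 in high c-Myc cells and 12.5 in low c-Myc cells (1 and 3 of 4 at an RPKM of 1 or more), with CD3D listed at 0 in both, and myeloid markers summed to 24.5 in high c-Myc cells and 84.1 in low c-Myc cells (2 of 4 in each), with CD14 under 0.1 in both. In the high c-Myc library NK cell markers summed to 4.90 (1 of 3 at 1 or more), fibroblast and epithelial markers to 13.0 (3 of 5) and plasma cell markers to 25.6 (3 of 3), and in the low c-Myc library the sums were 8.99 (1 of 3), 19.2 (2 of 5) and 31.9 (2 of 3). The 4 erythroid and platelet markers were listed at 0 in both. Their part in the replication genes' differences was not tested.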

How the data were processed

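Per the labels' protocols, poly(A) RNA of P493-6 cells was sequenced from 1 high c-Myc (24 h) and 1 low c-Myc (0 h) sample, with synthetic RNAs added by cell number and a dUTP method that keeps the strand. Per the submitters' processing notes, Bowtie and the build hg18 were used. The counting tool, its filters and its use of strand are not given in the sources used. The authors deposited RPKM values per RefSeq transcript, per the file headers, and a second RPKM column, renormalized to those synthetic RNAs, which served as an alternative.

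For each symbol the row of highest mean RPKM was used. Ratios used a pseudocount of 0.5, a mean RPKM of at least 1 marked an expressed gene, and per-cell ratios had the median log2 ratio of 46 synthetic RNAs subtracted. Depth was read from the steps of low RPKM values and transcript lengths of GENCODE release 29, where 46.8% of 2377 low transcripts in the high c-Myc library and 48.9% of 3266 in the low one lay within 0.05 of a whole number of reads (10% by chance). Intervals are exact binomial at 95% on those approximate reads and cover counting error only. The GC correction subtracted the median ratio in 20 equal bins. No p-value is given, since each group had 1 library. The ratio rule and the depth estimate were run on simulated reads with planted changes and counting error only. Those reads held no GC effect, no synthetic RNAs and no variation between libraries, so the run does not bear on these.

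The 49 genes and the lists were chosen with earlier results of these data known. Named genes are the 49, MYC, the 3 highest and 3 lowest ratios of the further lists, and cell type markers. The software was pandas 2.3.3, scipy 1.17.1 and numpy 2.4.6 under Python 3.11.15, with matplotlib 3.10.9 for plots.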

Additional observations from a re-analysis of the deposited data

How the results depend on the processing

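No paired analysis was possible because each group held 1 library, and for the same reason no replicate could be left out. Of 490 alternative values of single genes, 224 moved by more than counting error. No gene called at 2-fold changed sign, but that would have taken a shift of more than 1 log2 unit. Among genes not called on the deposited scale, the signs of RFC1, RPA1, RPA2 and TOPBP1 turned under at least 1 scaling. Those of ORC3 and ORC4 turned after the GC correction. The median log2 ratio of the replication genes on the deposited scale (1.51) was 1.33 with a pseudocount of 1, 1.68 over the 32 genes with a mean RPKM of at least 5, 1.29 after centring, 1.23 with an equal RPKM sum of the genes alone, 1.11 after quantile normalization and 1.62 over the 26 genes without exon overlap, a setting added after the data were seen. Of those 26 genes, 18 were at least 2-fold higher, against 24.9% of all expressed genes, which were not sorted by exon overlap. At 3-fold 22 of 49 were higher, against 13.0% of expressed genes. Per cell the median (4.07) was 3.88 with a pseudocount of 1 and 4.24 over genes with a mean RPKM of at least 5. Of those genes 32 of 32 were at least 2-fold higher per cell, near the 97.1% of 6973 expressed genes at that limit. From the authors' renormalized column, with a pseudocount of 0.5, the median was 3.40. Sums over accessions, which count reads shared by transcripts more than once, gave a CDT1 to GMNN ratio of 2.95 in high c-Myc cells and 1.70 in low c-Myc cells, a spread of 12.7-fold within the MCM ring in high c-Myc cells, and one of 13.5-fold within GINS in low c-Myc cells. The calls of MCM8, ORC5, DBF4, GINS4 and RFC4, which lie near 2-fold, were lost with a pseudocount of 1. Centring, an equal RPKM sum and quantile normalization each also lost POLE3 and RFC5, and lost the same 5 genes except that DBF4 kept its call under quantile normalization. Depth limits POLE2 and GMNN most, with about 103 and 138 reads at 0 h.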

Other observations

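The listed transcripts of a gene mostly had like ratios. The tables hold several accessions for 21 of the 49 replication genes, 85 accessions over all 49, and in 18 of the 21 the log2 ratios on the deposited scale differed by less than 0.1 between accessions. The largest gap was in ORC5, where NM_181747 had a log2 ratio of 1.40, with 4.28 RPKM in high c-Myc cells and 1.31 in low c-Myc cells, while NM_002553 had one of 1.08. In RFC2, NM_002914 had a log2 ratio of 1.15 and NM_181471 had one of 0.95, so that the 2-fold call rests on the choice of transcript. In GINS3 the ratios ran from 1.22 to 1.38. Accessions of one gene share most of their reads and are not independent measurements.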
